A study of Mus musculus with 4 samples.

Results

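Inhibitory receptors and ectoenzymes restrain T cells from the cell surface, and 9 of their genes were examined for open chromatin: Pdcd1, Lag3, Havcr2, Tigit, Cd96, Btla and Klrg1, which encode receptors, and Entpd1 and Nt5e, which encode the enzymes CD39 and CD73. They are 9 of 21911 protein-coding genes. Regions were taken in the gene record of each member with 25 kb on each side, by merging the peaks of all libraries that shared at least 1 base. This gave 114 regions in the member windows out of 93679 in the genome. A region within 1 kb of a start site of a member was classed as its promoter, a region within 1 kb of the start of another gene as the promoter of that gene, and any other region as distal. By these classes 11 regions were promoter regions of members, 9 were promoters of other genes and 94 were distal.

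PD-1 (Pdcd1), BTLA and TIGIT carry inhibitory motifs in their tails that recruit the phosphatases SHP-1 and SHP-2, LAG-3 binds MHC class II, and TIM-3 (Havcr2) binds galectin-9 among other ligands. CD96 and TIGIT compete with the activating receptor CD226 for nectin family ligands, and KLRG1 is a lectin-like receptor for cadherins on differentiated T and NK cells. CD39 removes phosphates from extracellular ATP and CD73 turns the resulting AMP into adenosine, and regulatory T cells of the mouse are known to bear both enzymes.

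The cells were naive CD4+ T cells of the spleen, sorted by high CD62L, low CD44 and no CD25, from male wild-type C57BL/6 mice aged 7 weeks. All were activated for 48 h by antibodies to CD3, bound to the plate at 5 µg/ml, and to CD28, in solution at 1 µg/ml. All received human TGF-β1 at 5 ng/ml with mouse IL-2 at 10 ng/ml, the conditions that induce regulatory T cells (iTreg). The group iTreg+PBS received no IL-4 and the group iTreg+IL-4 received 15 ng/ml of mouse IL-4, with 2 libraries of 50000 cells in each group. ATAC-seq, in which a transposase cuts where DNA is free of nucleosomes, was run on these cells, and the question was which chromatin IL-4 opens or closes during polarization. The study describes the replicates as independent pools, and the cells were a mixed culture that was not sorted for Foxp3 before the assay. Chromatin of a few cells and partial opening in many cannot be told apart.

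The authors' lists held between 56645 and 78670 peaks, with the fewest in iTreg+PBS replicate 2, and peak lists do not state the number of reads, so the depth is unknown. A region without a peak is one that did not pass the caller's threshold in that library, not one shown to be closed. Because heights were not scaled between libraries, each peak was ranked in its own list by the −log10 of its q-value, the caller's measure of enrichment. The rank is given as the percent of peaks of the list with a higher value, so a low percent marks a strong peak. The labelled cell type was checked on promoter peaks: 9 of 10 genes of T helper cells had one in all 4 libraries, the exception being Trac, with none, and Cd79a, Csf1r, Lyz2, Adgre1, Ncr1 and Klrb1c of B, myeloid and NK cells had none in any library. Markers of other cells with a promoter peak in all 4 libraries were Cd8b1, Cd14 and Epcam, Ms4a1 and Itgam had one in 3 libraries, Cd8a in 2 and Pax5 in 1. The part of such cells in the results was not tested.

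The 4 regions of the member windows that were called in both libraries of one condition and in neither of the other are shown first, since they are where presence of a peak followed IL-4. Coordinates are on mm10 (GRCm38) and bases are those of the forward strand. Capitals mark matches, on either strand, to the palindrome TTCNNNNGAA, to which STAT6, the factor activated by IL-4, can bind, to AGATAA, bound by GATA factors, to TGTGGT, bound by RUNX factors, and to TGANTCA, bound by AP-1. Called only with IL-4 were a region 31428 bases downstream of the Havcr2 start (chr11:46486219-46486508, intergenic), one 38055 bases downstream of a Btla start (chr16:45262214-45262570, intergenic, of which the central 300 bases are shown, 45262243 to 45262542) and one 12841 bases upstream of the Entpd1 start (chr19:40599465-40599648, in intron 13 of Tctn3). Called only without IL-4 was a region 12630 bases downstream of the Cd96 start (chr16:46107520-46107722, in intron 3 of Cd96).
Havcr2, only with IL-4: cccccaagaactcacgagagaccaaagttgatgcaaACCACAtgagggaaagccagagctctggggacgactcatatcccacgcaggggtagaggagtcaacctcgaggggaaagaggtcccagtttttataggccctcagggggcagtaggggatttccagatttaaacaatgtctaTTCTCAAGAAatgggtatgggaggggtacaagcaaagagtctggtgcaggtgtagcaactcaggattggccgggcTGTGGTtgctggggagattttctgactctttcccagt
Btla, only with IL-4: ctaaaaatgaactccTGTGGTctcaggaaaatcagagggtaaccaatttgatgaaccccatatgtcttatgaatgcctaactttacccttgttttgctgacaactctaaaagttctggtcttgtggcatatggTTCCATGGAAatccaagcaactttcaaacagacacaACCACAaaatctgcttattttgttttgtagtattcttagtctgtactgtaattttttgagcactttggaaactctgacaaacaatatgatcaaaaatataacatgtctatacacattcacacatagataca
Entpd1, only with IL-4: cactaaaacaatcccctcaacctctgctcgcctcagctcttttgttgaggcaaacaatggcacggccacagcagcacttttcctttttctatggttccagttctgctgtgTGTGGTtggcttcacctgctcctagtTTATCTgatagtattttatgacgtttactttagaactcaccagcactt
Cd96, only without IL-4: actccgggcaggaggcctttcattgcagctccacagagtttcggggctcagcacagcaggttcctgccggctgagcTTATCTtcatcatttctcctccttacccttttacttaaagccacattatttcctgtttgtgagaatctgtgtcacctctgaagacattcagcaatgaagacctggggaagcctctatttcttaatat
The palindrome TTCNNNNGAA was found once in the Havcr2 sequence and once in the Btla sequence, and not in the sequences of Entpd1 and Cd96. Of 93503 regions on assembled chromosomes, 5.84% held it within a window of 200 bases about the centre. The matches of Havcr2 and Btla lay within that window too. In the same window 8.47% of all regions held TTCNNNGAA, a control with a spacer shorter by a base. Binding of STAT6 at these matches was not tested.

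All 4 of these regions were weak peaks. The Havcr2 region ranked at 79.2% in IL-4 replicate 1 and at 67.5% in replicate 2. Its neighbour 33518 bases downstream of the start, called in 3 libraries, lacked a peak in PBS replicate 2 only. The Btla region ranked at 92.5% and 80.1% in the IL-4 libraries and the Entpd1 region at 92.6% and 93.8%. The Cd96 region, which held a match to AGATAA, ranked at 80.0% and 66.3% in the PBS libraries. All 4 were distal, and none was in the stronger 50% of a list.

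Regions called only with IL-4 thus numbered 3 of 114 in the member windows, beside 2.6% of all regions in the genome, and regions called only without IL-4 numbered 1 of 114, beside 0.699%. These counts are near the background and set the members apart from other genes in neither direction. They also depended on single libraries, in part by construction, since an arm then has 1 library: without PBS replicate 1, PBS replicate 2, IL-4 replicate 1 or IL-4 replicate 2 the regions called only with IL-4 numbered 14, 3, 7 and 6, beside 13.6%, 3.41%, 7.25% and 11.1% of all regions, and those called only without IL-4 numbered 5, 12, 2 and 2, beside 3.25%, 8.21%, 3.2% and 1.5%. With all lists cut to the 56645 highest peaks of the shortest list, neither kind was found among 91 regions of the windows, beside 1.92% and 1.03% of all regions.

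Of the 114 regions, 60 (52.63%) were called in all 4 libraries, against 50.99% of all regions. Promoter regions were called in all 4 in 10 of 11 cases, against 77.33% of promoter regions in the genome, and distal regions in 41 of 94 (43.62%, against 44.11% of distal regions in the genome). The windows held 99 regions in PBS replicate 1, 68 in PBS replicate 2, 91 in IL-4 replicate 1 and 81 in IL-4 replicate 2, which is the order of list lengths apart from the replicate 1 libraries. Of the remaining regions, 22 were called in 1 library, 19 in 2 and 13 in 3, and 11 of the 13 lacked a peak in PBS replicate 2, the shortest list, only. Of the 19 regions called in 2 libraries, 13 were called in both replicate 1 libraries only and 1 in both replicate 2 libraries only. Presence thus followed the replicate number in 14 regions and the condition in 4, beside 8.08% and 3.3% of all regions in the genome. The replicate 1 lists were the longest (77064 and 78670 peaks), so replicate number and list length cannot be told apart in these counts.

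**Figure D1:**
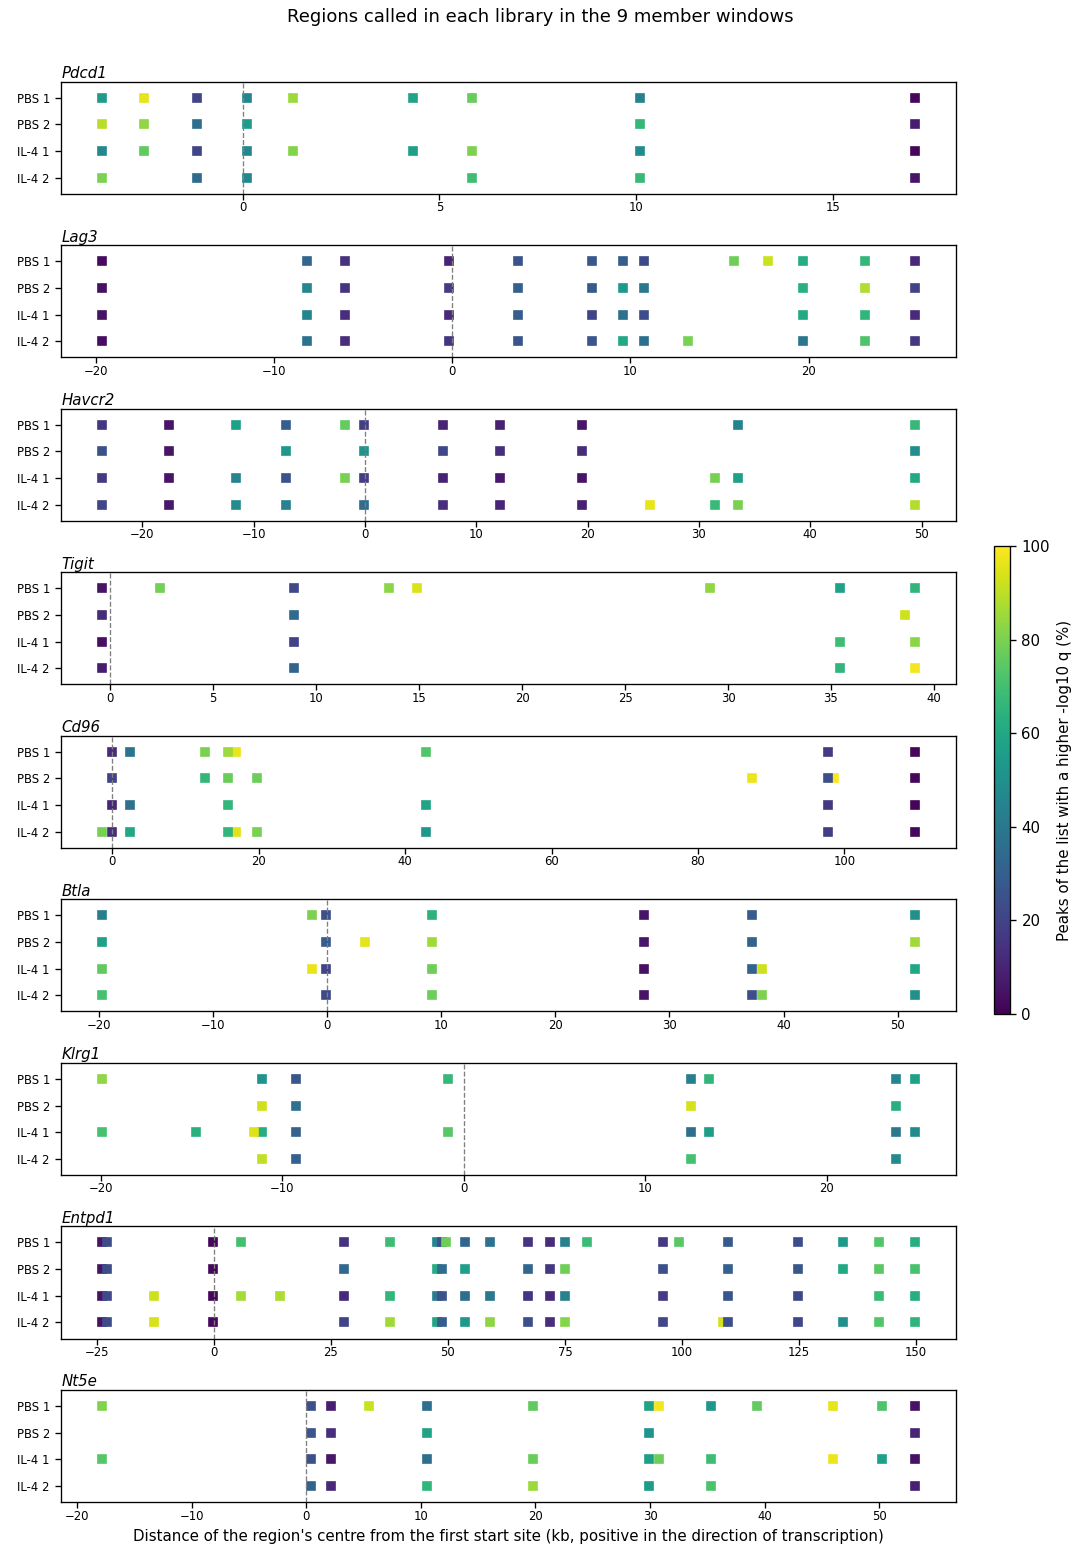
Regions called in each library (rows) around the 9 members, plotted by the distance of their centre from the first start site in kb, with positive distances in the direction of transcription. Each square is a called region and its colour the percent of peaks of that list with a higher −log10 q, dark for strong peaks. Most dark squares form columns of 4, and gaps are most frequent in the PBS 2 row and where squares are pale, with 11 regions missing from that row alone.

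Regions were dense around the members. The windows held a median of 13.95 regions per 100 kb, from 8.92 at Cd96 to 24.41 at Lag3, and the median over all protein-coding genes was 6.76. Counted by position, the centres of 50 regions lay inside the member, 15 inside another gene and 49 between genes. Entpd1, the longest record at 129237 bases, had the most regions (25), and Pdcd1, Tigit and Btla had the fewest (9 each).

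Promoters were open at nearly every member. A promoter peak was called in all 4 libraries at 8 of 9 members, beside 58.1% of protein-coding genes, and at Klrg1 in the replicate 1 library of each condition. In the order of their mean rank, taking at Pdcd1 the region over its start and not a second promoter region upstream, the promoters ran from the first start of Entpd1 through Tigit, Lag3, Cd96, Btla, Nt5e, Havcr2 and Pdcd1 to the second start of Entpd1, with Klrg1 last. Values below are for PBS replicates 1 and 2 and then IL-4 replicates 1 and 2, and means are over the 4 libraries.

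**Figure D2:**
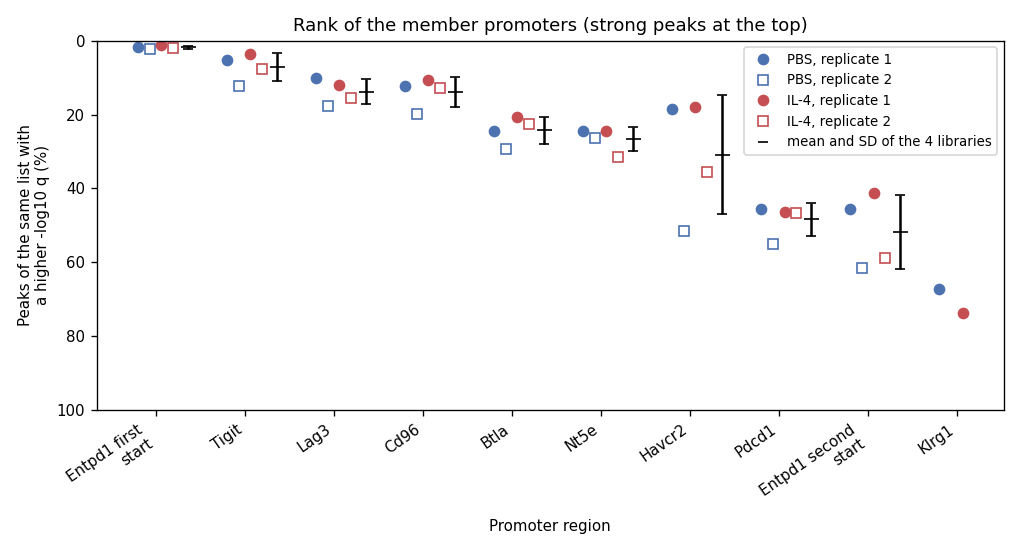
Rank of the promoter region of each member in each library, as the percent of peaks of the same list with a higher −log10 q, with an inverted axis so that strong peaks are at the top. Blue marks PBS, red IL-4, filled circles replicate 1 and open squares replicate 2, and black bars the mean and SD (n = 4). The first start of Entpd1 stands at the top in every library and Klrg1 has 2 points only.

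The ectoenzyme gene Entpd1 (chromosome 19, forward strand, 40612366 to 40741602) had 2 promoters with a peak in all 4 libraries. At its first start the region chr19:40611839-40612655 ranked at 1.69%, 2.30%, 1.27% and 2.08% (mean 1.84% ± 0.45, SD, n = 4), ahead of the other member promoters in each library. This region also lies within 1 kb of the start of Tctn3, so the 2 genes cannot be told apart there. At the second start, chr19:40659570-40660431 in intron 1 ranked at 45.5%, 61.6%, 41.2% and 58.7% (mean 51.8% ± 9.93, SD, n = 4), weaker in every library. Both start sites had a RefSeq promoter (250 bases before to 50 after a start, assembly GRCm38.p6, forward strand), at chr19:40612116-40612415 and chr19:40659520-40659819, printed to show how they differ; capitals mark the motifs given above.
Entpd1, first start: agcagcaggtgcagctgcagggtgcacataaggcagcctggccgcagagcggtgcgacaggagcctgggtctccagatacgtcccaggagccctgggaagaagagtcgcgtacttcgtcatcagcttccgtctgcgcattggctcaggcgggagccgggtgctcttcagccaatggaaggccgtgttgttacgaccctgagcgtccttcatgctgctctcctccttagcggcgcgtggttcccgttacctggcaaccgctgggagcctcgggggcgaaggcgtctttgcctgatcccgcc
Entpd1, second start: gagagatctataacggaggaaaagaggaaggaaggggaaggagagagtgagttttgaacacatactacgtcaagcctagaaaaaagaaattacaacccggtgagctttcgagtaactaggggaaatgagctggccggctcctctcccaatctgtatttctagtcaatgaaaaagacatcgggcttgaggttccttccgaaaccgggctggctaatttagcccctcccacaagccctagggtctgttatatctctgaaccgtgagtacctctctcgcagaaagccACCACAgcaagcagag
The first held 23 CG dinucleotides at 64.0% GC and no match to a motif searched, the second 10 CG at 48.7% GC and 1 match to TGTGGT on the reverse strand. The median over 32851 RefSeq promoters was 7 CG and 52.7% GC.

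Between these starts and along intron 1 lay a chain of distal regions. The best ranked, 24413 bases downstream of the second start (chr19:40683959-40684408), stood at 12.4%, 16.1%, 12.0% and 13.6%, and held a match to the AP-1 motif in the 200 bases around its centre. A region 48651 bases downstream of that start (chr19:40707918-40708925) stood at 16.4%, 24.1%, 17.4% and 20.8% and held the palindrome TTCNNNNGAA. Ranks of both overlapped between the conditions. Of the 25 Entpd1 regions, 15 were called in all 4 libraries.

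Nt5e (chromosome 9, forward strand, 88327197 to 88372092) makes adenosine from the AMP that CD39 leaves. Its promoter region chr9:88327339-88327963 ranked at 24.4%, 26.3%, 24.4% and 31.4% (mean 26.6% ± 3.28, SD, n = 4), with no order between conditions. A stronger region lay in intron 1, 2169 bases downstream (chr9:88328978-88329755), at 8.22%, 13.1%, 6.01% and 11.2%. By q-value the strongest of the window was 53138 bases downstream in intron 25 of Snx14 (chr9:88379999-88380671), at 5.02%, 10.2%, 4.25% and 9.26%. In both, the replicate 1 libraries ranked better than the replicate 2 libraries, whichever the condition. Of 13 Nt5e regions 5 were called in all 4 libraries and 4 in the replicate 1 libraries alone.

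Among the receptors, Tigit had the strongest promoter. Tigit (chromosome 16, reverse strand, 43648867 to 43664146) ranked at 5.15%, 12.2%, 3.63% and 7.62% in its promoter region chr16:43663878-43665191 (mean 7.16% ± 3.76, SD, n = 4). Its only other region called in all 4 libraries was 8948 bases downstream in intron 3 (chr16:43654758-43655638), at 21.6%, 34.2%, 19.7% and 32.1%. Of the 9 Tigit regions 5 were called in a single library, and 4 lay in the 3′ untranslated exon 15 of Zbtb20, the next gene. The start was thus the strongest region of the Tigit window in every library.

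CD96 shares a ligand with TIGIT. The promoter region of Cd96 (chromosome 16, reverse strand, 46035657 to 46120251), chr16:46119839-46120775, ranked at 12.4%, 19.8%, 10.6% and 12.7% (mean 13.9% ± 4.05, SD, n = 4). These ranks overlapped, with PBS replicate 1 between the IL-4 libraries. Its RefSeq promoter (chr16:46120199-46120498, reverse strand, shown in the direction of transcription) is the only one of the 8 member promoter sequences that held the palindrome TTCNNNNGAA, and is printed for that. Its capitals also mark TGTGGT, on both strands, and TTCNNNGAA, a control palindrome with a spacer shorter by a base.
Cd96: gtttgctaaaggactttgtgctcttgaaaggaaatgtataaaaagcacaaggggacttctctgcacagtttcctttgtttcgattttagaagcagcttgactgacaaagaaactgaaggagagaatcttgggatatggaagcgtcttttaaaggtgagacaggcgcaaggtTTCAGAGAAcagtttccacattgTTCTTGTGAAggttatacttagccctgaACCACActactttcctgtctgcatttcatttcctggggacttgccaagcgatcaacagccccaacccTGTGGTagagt
Of 32851 RefSeq promoters 6.95% held TTCNNNNGAA and 8.30% the control.

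Inside Cd96, a region in intron 3, 15773 bases downstream (chr16:46104052-46104904), ranked at 84.8%, 77.0%, 65.7% and 65.3%. It was better placed in both IL-4 libraries, by 15.4 points against a pooled SD of 3.88 (exact two-sided permutation test, p = 0.333), and it held both the palindrome TTCNNNNGAA and an AP-1 match. Ranked among regions called in all 4 libraries only, it stood at 97.5%, 86.3%, 89.6% and 84.1%, where the conditions overlapped, and it was not in all 4 lists of equal length. With 2 libraries against 2 the smallest p this test allows is 0.33, so no difference could pass a threshold of 0.05. The region called only without IL-4 lies in the same intron. Among distal regions of Cd96 the best was 97764 bases downstream, past the end of the gene (chr16:46022102-46022872), at 16.7%, 24.2%, 15.7% and 17.7%. Only 4 of 12 Cd96 regions were called in all 4 libraries.

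Lag3 (chromosome 6, reverse strand, 124904361 to 124911705) encodes a receptor related to CD4 and lies beside Cd4. Its promoter region chr6:124911395-124912347 ranked at 10.0%, 17.7%, 12.0% and 15.6% (mean 13.8% ± 3.44, SD, n = 4), next to Cd96 in order and ahead of it in 2 of 4 libraries by q-value and in 4 of 4 by peak height, so the order of these neighbours depends on the measure. The best distal region of the window, 25984 bases downstream, lay in intron 1 of Cd4 (chr6:124884992-124886451) at 11.4%, 19.9%, 12.0% and 16.1%. Of 14 Lag3 regions 11 were called in all 4 libraries, the highest share of any member (78.57%), and the window holds the promoters of Cd4, Mlf2 and Ptms with A230083G16Rik.

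Ranks at Lag3 were better in both IL-4 libraries in 3 regions. The distal region 7847 bases downstream (chr6:124903572-124904144) stood at 27.1%, 27.9%, 20.6% and 26.3%, and the one 19669 bases downstream (chr6:124891822-124892251) at 61.6%, 63.6%, 60.6% and 38.9%. In the second the difference came from IL-4 replicate 2, and the other IL-4 library stood close to the PBS libraries. The promoter of Ptms and A230083G16Rik (chr6:124917102-124918368) stood at 14.4%, 15.5%, 12.7% and 13.5%. The exact permutation test gave p = 0.333 for each of the 3, the least it can give.

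BTLA, which binds HVEM, gave the clearest promoter order. The promoter region of Btla (chromosome 16, forward strand, 45224315 to 45257670), chr16:45223477-45225026, ranked at 24.4%, 29.2%, 20.7% and 22.6%, so both IL-4 libraries stood ahead of both PBS libraries. Their means were 26.8% ± 3.37 (SD, n = 2) for PBS and 21.6% ± 1.32 (SD, n = 2) for IL-4, which differed by −5.18 points with a pooled SD of 2.56 (exact two-sided permutation test, p = 0.333). The median shift of all regions called in all 4 libraries was −2.05 points, that of promoter regions −0.86 and that of distal regions −3.16 points. Its RefSeq promoter (chr16:45224087-45224386, forward strand) is printed for this region, with a TGTGGT match on the reverse strand in capitals.
Btla: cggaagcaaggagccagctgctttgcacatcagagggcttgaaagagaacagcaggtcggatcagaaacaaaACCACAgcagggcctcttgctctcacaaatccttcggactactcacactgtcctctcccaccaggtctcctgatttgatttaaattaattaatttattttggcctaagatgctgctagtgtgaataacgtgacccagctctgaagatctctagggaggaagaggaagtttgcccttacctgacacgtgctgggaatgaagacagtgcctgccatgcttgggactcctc

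The strongest Btla region was distal. It lay 27725 bases downstream of a start, in exon 6 in the 3′ untranslated part (chr16:45251602-45252523), at 5.54%, 5.74%, 3.95% and 4.96%. Both IL-4 libraries stood ahead, by a mean of 1.19 points (exact permutation p = 0.333). The median shift of distal regions, −3.16 points, belongs to median ranks from 36.99% to 51.15%, so these shifts cannot be compared directly. The reverse order was found at the start of Gm6030, 19722 bases upstream of Btla (chr16:45204312-45204874), which stood at 42.9%, 56.7%, 75.8% and 70.6%. This was the single region of the windows ranked better in both PBS libraries, by 23.4 points against a pooled SD of 7.36 (exact permutation p = 0.333). An intergenic region 37235 bases downstream (chr16:45261217-45261928), next to the one called only with IL-4, stood at 29.1%, 31.4%, 30.8% and 23.5%, with overlapping ranks.

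At Havcr2 (chromosome 11, forward strand, 46454935 to 46481255) the body of the gene was more open than its start. The promoter region chr11:46454564-46455141 ranked at 18.5%, 51.5%, 17.9% and 35.4% (mean 30.8% ± 16.0, SD, n = 4), the widest spread among promoters, and both replicate 1 libraries stood ahead of both replicate 2 libraries. Distal regions in introns 3, 4 and 5 were stronger in every library: 6999 bases downstream (chr11:46461461-46462407) ranks were 9.91%, 20.9%, 9.49% and 12.6%. In intron 4, 12091 bases downstream (chr11:46466731-46467322), they were 9.11%, 13.1%, 6.49% and 10.4%. In intron 5, 19448 bases downstream (chr11:46474096-46474671), they were 5.19%, 12.4%, 5.37% and 9.14%. Ranks of all 3 overlapped between the conditions. By peak height the intron 4 region stood ahead of the intron 5 region in PBS replicate 2 and in both IL-4 libraries. The centre of the intron 5 region (forward strand, chr11:46474284-46474483) is shown as the strongest distal peak of Havcr2 by q-value, with an AP-1 match in capitals.
Havcr2, intron 5: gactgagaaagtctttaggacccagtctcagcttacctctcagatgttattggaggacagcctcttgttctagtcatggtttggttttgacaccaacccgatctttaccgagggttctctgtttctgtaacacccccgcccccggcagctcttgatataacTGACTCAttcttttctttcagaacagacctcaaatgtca

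Pdcd1 (chromosome 1, reverse strand, 94038305 to 94052553), the gene of PD-1, had a weak promoter peak and a very strong region past its end. The region at its start, chr1:94052130-94052749, ranked at 45.5%, 55.0%, 46.3% and 46.7% (mean 48.4% ± 4.47, SD, n = 4). A neighbour centred 1172 bases upstream, whose edge lies within 1 kb of the start (chr1:94053413-94054037), was stronger in every library, at 20.0%, 35.9%, 20.5% and 34.4%. Strongest was an intergenic region 17096 bases downstream of the start (chr1:94034922-94035993), at 1.76%, 8.04%, 1.35% and 5.23%. Its rank was better than that of any other distal region of the windows in both replicate 1 libraries. Its central 200 bases (chr1:94035358-94035557, forward strand) are shown, with the AGATAA match, on the reverse strand, in capitals.
Pdcd1, downstream: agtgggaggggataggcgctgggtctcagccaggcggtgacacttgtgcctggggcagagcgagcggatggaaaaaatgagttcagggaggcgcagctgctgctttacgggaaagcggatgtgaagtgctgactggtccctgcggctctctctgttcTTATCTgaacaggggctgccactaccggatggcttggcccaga
The second best distal region, in intron 1 (chr1:94042159-94042767), stood at 43.4%, 66.7%, 47.9% and 67.3%. Farther upstream than 3575 bases from the start no region was called in the window, and no Pdcd1 region was called in one condition only or held an order of ranks by condition.

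Klrg1 (chromosome 6, reverse strand, 122270596 to 122282882) was the least open of the members at its start. The promoter region chr6:122283544-122283969, centred 874 bases upstream, ranked at 67.2% in PBS replicate 1 and 73.6% in IL-4 replicate 1 and was not called in the replicate 2 libraries. Its best region, 9234 bases upstream (chr6:122291801-122292432), stood at 26.3%, 36.8%, 30.8% and 30.2% and held an AP-1 match. The next, 23798 bases downstream past the gene (chr6:122258791-122259378), stood at 45.7%, 63.4%, 39.9% and 47.4%. Ranks of both overlapped between conditions, and 4 of the 10 Klrg1 regions were called in the replicate 1 libraries alone.

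Across promoters, some neighbours in the order did not differ beyond their spread. By q-value the first start of Entpd1 ranked ahead of Tigit, Tigit ahead of Lag3, Cd96 ahead of Btla and Havcr2 ahead of the region over the Pdcd1 start in 4 of 4 libraries. The second Pdcd1 promoter region, upstream, stood at a mean of 27.7% and ahead of the Havcr2 promoter in both replicate 2 libraries, so the place of Pdcd1 in the order depends on the region taken. Ranked by peak height, an alternative chosen after seeing the data, the first start of Entpd1, Tigit and Cd96 stayed ahead of the promoter next to them in 4 of 4 libraries, but Havcr2 was ahead of the Pdcd1 start in 2 only and behind it in both replicate 2 libraries. By q-value Lag3 was ahead of Cd96, Btla ahead of Nt5e and Nt5e ahead of Havcr2 in 2 of 4, and the Pdcd1 start ahead of the second start of Entpd1 in 3 of 4. By height these counts were 4, 1, 4 and 4.

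Among the 60 regions called in all 4 libraries, 10 ranked better in both IL-4 libraries, beside 19.7% of 47767 such regions in the genome, and 1 ranked better in both PBS libraries, beside 5.18%. The 10 were the 3 at Lag3, the 1 at Cd96 and the 2 at Btla given above, and 4 at Entpd1. The Entpd1 regions were those at the starts of Aldh18a1 and Gm27042 (chr19:40588072-40589013, at 4.75%, 4.78%, 4.59% and 4.37%, and chr19:40589196-40589767, at 23.0%, 23.3%, 22.4% and 22.3%) and those in intron 3 (chr19:40721737-40722820, at 27.6%, 30.5%, 26.8% and 24.1%) and intron 9 of Entpd1 (chr19:40737026-40737579, at 23.1%, 27.3%, 22.0% and 21.4%). The first of these moved by 0.28 points only. In 45 of the 60 (75.0%) the mean rank was better with IL-4, as in 73.3% of all such regions.

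These orders depended on how ranks were taken. When the same regions were ranked only among those called in all 4 libraries, so that lists of equal length are compared, 4 ranked better with and 3 better without IL-4, beside 14.3% and 12.7% of all such regions, in place of 10 and 1. Of the 10, 1 kept its order, the promoter of Btla, which then stood at 39.3%, 34.5%, 34.0% and 32.0%. By peak height 7 of the 10 kept their order, and in lists of equal length 1 did, again the promoter of Btla. The region at Gm6030 stood at 66.5%, 66.0%, 94.7% and 88.2% among shared regions and kept its order by height too, but was not in all 4 lists of equal length. Among shared regions the promoters of Cd96 (at 19.9%, 23.4%, 17.5% and 18.0%) and Nt5e (at 39.3%, 31.1%, 40.1% and 44.3%) also separated, the first better with IL-4 and the second better without. The distal regions 97764 bases downstream of the Cd96 start and 23798 bases downstream of the Klrg1 start separated too, better with IL-4. The promoter of Med7, in the window of Havcr2, stood at 8.38%, 6.70%, 8.56% and 9.37%, better without IL-4. It held that order by height and in lists of equal length as well. Leaving out PBS replicate 1, PBS replicate 2, IL-4 replicate 1 or IL-4 replicate 2 gave 49, 14, 13 and 33 regions ranked better with IL-4, out of 60, 72, 61 and 61 called in the remaining libraries, beside 70.8%, 24.3%, 30.2% and 48.4% of all such regions. In the same order 3, 30, 9 and 2 ranked better without IL-4, beside 9.94%, 36%, 17.9% and 12.5%. The counts of the members thus moved with those of the genome.

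**Figure D3:**
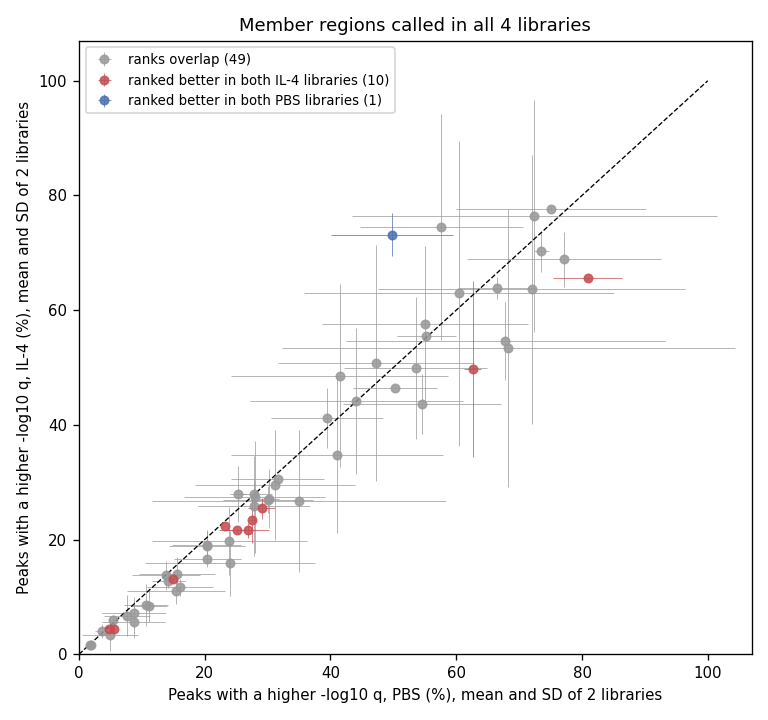
Mean rank with IL-4 against mean rank with PBS for the 60 member regions called in all 4 libraries, as the percent of peaks of the list with a higher −log10 q; bars are the SD of 2 libraries and the dashed line marks equal ranks. Red points (10) ranked better in both IL-4 libraries, the blue point (1) in both PBS libraries, and 49 grey points overlapped. Most red points lie close to the line, and the blue point, the start of Gm6030, lies far above it.

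The total of bases inside peaks did not separate the conditions. The windows held 52440 and 37949 bases inside peaks in PBS replicates 1 and 2 and 50447 and 43534 in IL-4 replicates 1 and 2. The means were 45194.5 ± 10246.7 (SD, n = 2) and 46990.5 ± 4888 (SD, n = 2), a difference of 1796 bases against a pooled SD of 8028 (exact two-sided permutation test, p = 1.0). The difference turned to −5449.5 bases without PBS replicate 2 and to −1660.5 bases without IL-4 replicate 1, and was 9041.5 without PBS replicate 1 and 5252.5 without IL-4 replicate 2. By member, Cd96 alone had more bases in both IL-4 libraries (3441 and 3762) than in both PBS libraries (3194 and 3249), with p = 0.333 by the exact permutation test. At Klrg1 the values of 3052, 915, 3167 and 1121 followed the replicate number.

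**Figure D4:**
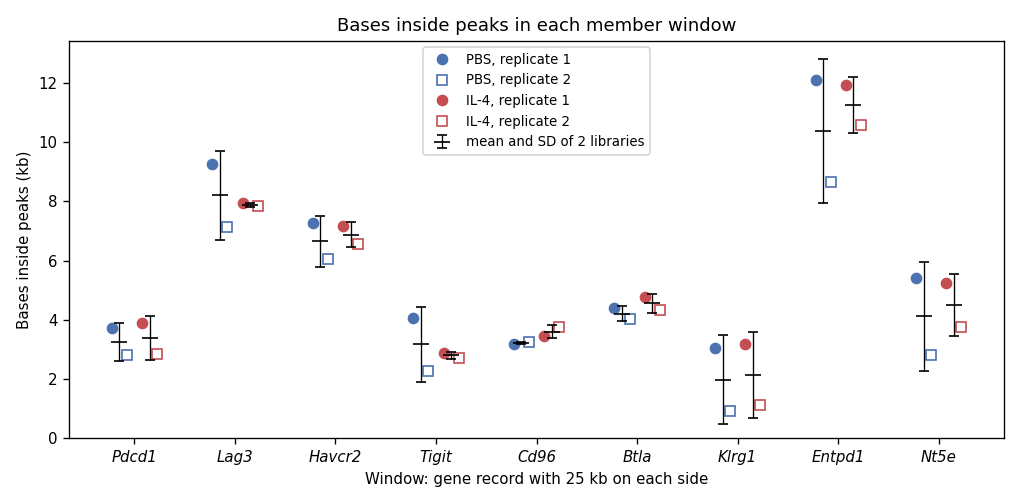
Bases inside peaks in kb in the window of each member, by library, with blue for PBS, red for IL-4, filled circles for replicate 1 and open squares for replicate 2; black bars give the mean and SD of 2 libraries. By the means of each condition Entpd1 has the most and Klrg1 the fewest, and the 2 conditions overlap at every member except Cd96, where the IL-4 points lie slightly higher.

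Sequence motifs, which did not enter the choice of the regions, were counted in them. Within 200 bases around the centre, the AP-1 motif TGANTCA was found in 23 of 114 member regions (20.18%), beside 12.89% of all regions, and in 12 of the 41 distal regions called in all 4 libraries (29.27%), beside 13.75% of 32707 such regions in the genome, but in 1 of 11 promoter regions of members. In the same 41 distal regions TGTGGT was found in 7 (17.07%, beside 24.22%) and AGATAA in 3 (7.32%, beside 8.94%). TTCNNNNGAA was found in 2 (4.88%, beside 6.17%) and the control TTCNNNGAA in 4 (9.76%, beside 9.96%). These are small counts, near the genome share for all but TGTGGT. In the 11 promoter regions TGTGGT was found in 5, TTCNNNNGAA in 2, the control in 1 and AGATAA in 0. Over all member regions TGTGGT was found in 31 (27.19%, beside 21.37%), AGATAA in 10 (8.77%, beside 7.86%) and TTCNNNNGAA in 10 (8.77%, beside 5.84%), while the control TTCNNNGAA was found in 13 (11.4%, beside 8.47%). The shares were not tested, since the regions are not replicates, and motifs were searched on both strands. Of 10 regions with TTCNNNNGAA, 2 were called only with IL-4 (at Havcr2 and Btla), 2 were promoters (Tigit and Cd96) and 2 were distal regions called in all 4 libraries (Cd96 intron 3 and Entpd1 intron 1). Of the other 4, those 17728 bases downstream of the Lag3 start and 14909 bases downstream of the Tigit start were called in PBS replicate 1 alone. The first is intergenic and the second lies in intron 3 of Tigit. One in intron 1 of Entpd1 was called in IL-4 replicate 1 alone, and one in intron 5 of Cd96 in 3 libraries. The median GC content was 54.5% in promoter and 46.2% in distal member regions, and 49.5% in all regions. RefSeq promoters were matched for 7 of the members, that is for all but Lag3 and Klrg1, and each of the 8 sequences overlapped a peak in all 4 libraries.

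The strongest distal region of Nt5e by q-value shows such matches in a single stretch. Its central 200 bases (chr9:88380236-88380435, forward strand) hold 1 AP-1 match and 1 match to TGTGGT on the reverse strand, in capitals.
Nt5e, in Snx14: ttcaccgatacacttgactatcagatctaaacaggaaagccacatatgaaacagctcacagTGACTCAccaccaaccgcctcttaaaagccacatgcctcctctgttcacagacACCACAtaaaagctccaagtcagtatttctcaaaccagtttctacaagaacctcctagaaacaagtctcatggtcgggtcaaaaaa

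Genes of the same pathways were described from a list of 23: 10 ligands, 7 genes of signalling or competing receptors and 6 genes of adenosine handling. Their windows held 267 regions, and a peak was present in all 4 libraries in 155, only with IL-4 in 6 and only without in 2, beside 50.99%, 2.6% and 0.699% of all regions. Of the 155, 34 ranked better with IL-4 and 5 better without, shares near those of the genome given above. A promoter peak was called in all 4 libraries at 21 of the 23, beside 58.1% of protein-coding genes. Among the 21 were Cd274 (PD-L1), Lgals9 (galectin-9), Pvr (a ligand of TIGIT and CD96) and Nectin2 (a ligand of TIGIT). Tnfrsf14 (HVEM), Ptpn6 (SHP-1) and Ptpn11 (SHP-2) were others. The exceptions were Pdcd1lg2 (PD-L2), without a promoter peak in PBS replicate 2, and Fgl1, a ligand of LAG-3 made by liver, without one in any library.

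In the adenosine group 3 of 66 regions were called only with IL-4 and 0 only without, small counts beside shares of 2.6% and 0.699% in the genome. One lay in intron 3 of Adk (chr14:21136916-21137164), the gene of adenosine kinase, which turns adenosine back into AMP, and ranked at 59.5% and 47.5% in the IL-4 libraries. It was the strongest region called only with IL-4 in the windows of members and pathway genes. The others, in intron 1 of Ap3m1 beside Adk (chr14:21047194-21047429, at 81.6% and 80.1%) and in intron 15 of Specc1l beside the adenosine receptor gene Adora2a (chr10:75294224-75294524, at 98.3% and 85.4%), were weaker. Ligand genes held 1 region called only with IL-4, 71534 bases downstream of the Pdcd1lg2 start (chr19:29493495-29493692, at 82.0% and 90.2%). Signalling genes held 2 of each kind, among them one in intron 3 of Jph2 in the window of Tox2 (chr2:163340195-163340622), called only without IL-4 at 51.5% and 70.9%.

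The windows end at 25 kb, and the values at that limit were as follows. At the edge itself was the promoter of Plcxd2, of which 511 bases overlap the window of Cd96 (chr16:46010029-46011167), at 1.56%, 1.93%, 1.22% and 2.16%. Nearest outside, 350 bases beyond the window of Havcr2 (chr11:46429339-46429585), was a region called in both IL-4 libraries, at 84.5% and 88.3%, and in neither PBS library. Next, 453 bases beyond the window of Klrg1 (chr6:122308335-122309213), came a region called in all 4 libraries at 0.10%, 0.17%, 0.07% and 0.11%.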

How the data were processed

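The authors mapped paired reads of each library to mm10 with Bowtie2 (2.2.5), kept mapped pairs and called peaks per library with MACS2 (2.1.2). The submitters' processing notes also name bedtools (2.16.2). Any shift for the transposase offset and the removal of duplicates are not given in the sources used here, and their effect on positions and ranks was not tested. The authors deposited 4 lists without column names, read from their values as a −log10 q-value and a height of signal (pileup), neither scaled between libraries.

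The lists were read in Python 3.11.15 with pandas 2.3.3 and numpy 2.4.6, sequences with samtools 1.23.1 and pysam 0.24.0, and figures were drawn with matplotlib 3.10.9. Gene records and start sites came from GENCODE vM21 (basic set) and the genome from GRCm38.p6, and 0 of 279704 peaks on assembled chromosomes passed a chromosome end. Positions count from 1. Regions were compared by calls and by ranks in all 4 libraries, with exact two-sided permutation tests over libraries for single values; regions are not replicates and were not tested as such. The text names each member's promoter, every region called in one condition only or with ranks that do not overlap, and the 2 distal regions of each member called in all 4 libraries with the best rank in their weakest library. Other regions were named after their values were seen. Calls and rank orders were checked on simulated lists. The members, gene lists, motifs and alternatives were chosen with earlier results of these data known. Alternatives were stricter and equal-length lists, each library left out, RefSeq records, other window and promoter widths, a reciprocal overlap of 50%, other rankings and a replicate block.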

Additional observations from a re-analysis of the deposited data

How the results depend on the processing

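Of 67 alternative values of the counts and of the bases inside peaks, 35 stayed within 1.5 times the count or kept the direction of the difference, 30 moved and 2 reversed. The number of members with a promoter peak in all 4 libraries stayed at 7 to 8 of 9 under every alternative tried.

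Regions called only with IL-4 (3) numbered 1 in the upper 50% of each list, 0 in lists of equal length, 6 in windows of 50 kb and 3 to 14 without single libraries, of 59, 91, 158 and 103 to 111 regions and beside 2.14%, 1.92%, 2.6% and 3.41% to 13.6% of all regions. Those called only without IL-4 (1) numbered 0, 0, 2 and 2 to 12 in the same order, beside 0.301%, 1.03%, 0.699% and 1.5% to 8.21%, and 2 under a reciprocal overlap of 50%, beside 0.859%. Regions ranked better with IL-4 (10) numbered 4 in lists of equal length, 4 among regions called in all 4 and 13 to 49 without single libraries, beside 14%, 14.3% and 24.3% to 70.8% of all such regions in place of 19.7%. Those ranked better without IL-4 (1) are given with the share over the genome, 5.18% in the main setting. They numbered 0 of 37 in the upper 50% (4.17%), 2 of 55 in equal lists (12.5%) and 0 of 43 in windows of 10 kb (5.18%). Under reciprocal overlap they numbered 0 of 47 (5.35%), by height 2 of 60 (4.42%) and among regions called in all 4, 3 of 60 (12.7%). Without single libraries there were 2 to 30, of 60 to 72 regions (9.94% to 36%). The difference in bases inside peaks ranged from −5449.5 to 9041.5 without single libraries and turned negative without PBS replicate 2 (−5449.5) and without IL-4 replicate 1 (−1660.5). Upper lists and narrower windows hold fewer regions by construction; otherwise the cause was not tested.

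With the replicate number as a block, 30 regions ranked better in the IL-4 library of both numbers and 6 in the PBS library of both, beside 43.4% and 12.3% of all regions called in all 4. The block left the counts called only with and only without IL-4 at 3 and 1 by construction and the difference in bases at 1796 (exact p = 1.0). Same-numbered libraries deviated together from their group means (correlation 0.452 over 47767 regions). In each condition the replicate 2 list was the shorter (56645 beside 77064 peaks with PBS, 67743 beside 78670 with IL-4). Replicate number and list length therefore cannot be told apart here. With 2 numbers and no label of a shared batch, the correlation is not a design.

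Depth limits these lists, since the number of reads is unknown, the lists differ in length, and absence from a list is absence of a call. With 2 libraries against 2, the exact permutation test cannot go below p = 0.33.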

Other observations

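Apart from the members' own promoters, the windows hold 9 promoter regions of other genes, all called in all 4 libraries. Strongest were the promoters of Plcxd2 in the window of Cd96, given above, and of Mlf2 in the window of Lag3 (chr6:124930671-124932059, at 2.85%, 4.55%, 4.88% and 3.16%), followed by the region at the starts of Aldh18a1 and Gm27042, also given above, and by Med7 in the window of Havcr2 (chr11:46436750-46437875, at 5.20%, 5.66%, 5.20% and 6.61%). The promoter of Cd4, the gene that defines these cells, ranked lower by q-value (chr6:124888124-124888955, at 66.3%, 88.0%, 65.5% and 72.3%) than by height (38.5%, 56.5%, 39.2% and 42.8%), while the region in its intron 1 ranked at 19.9% or better in every library. Among the 60 regions of the windows called in all 4 libraries, 7 stood in the upper 10% of every list. Of these, 4 were promoters of other genes, 1 was the first start of Entpd1 and 2 were distal, at Pdcd1 and Btla. No share over the genome is given for this count, so it describes these windows only.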
